A study of Mus musculus with 7 samples.

Results

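The 10 genes described here, usually thought of as epithelial, were followed in alveolar macrophages, which patrol the air-facing surface of the lung. They were picked by symbol: the keratins Krt79, Krt19, Krt80 and Krt18, the adhesion and junction genes Epcam, Perp, Cldn1 and Cdh1, and the surface genes Plet1 and Car4. All 10 were found among the 26143 genes with a symbol in the count table. RNA came from sorted alveolar macrophages of C57BL/6 mice aged 4 months, 4 libraries from wild-type mice (WT 1 to WT 4) and 3 from Cish KO mice (KO 1 to KO 3). Cish, a target gene of STAT5, codes for a feedback inhibitor of cytokine signalling. The labels do not say whether a library holds 1 mouse or a pool, nor which cells lack Cish. They also do not say that the libraries came from separate mice, so each p-value speaks only of the spread among libraries, which may be technical.

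Keratins are the building blocks of the intermediate filaments that brace epithelial cells, and a filament needs a type I keratin (here Krt18 and Krt19) paired with a type II keratin (here Krt79 and Krt80). E-cadherin, the product of Cdh1, ties neighbouring cells together through the catenins, and claudins such as Cldn1 seal the space between them. EpCAM is a membrane glycoprotein of epithelia, and PERP is a membrane protein of desmosomes that is a target of p53 and p63. PLET1 and carbonic anhydrase 4, the product of Car4, are both held on the cell surface by a lipid (GPI) anchor. Alveolar macrophages live against the alveolar epithelium and are known to express several of these genes themselves.

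Total counts per library lay between 26780291 and 34483612. Levels are given in CPM, which are counts scaled to the library total with TMM factors. Cish had 29.6 to 67.9 CPM in WT and 10.9 to 14.3 CPM in KO, so its reads were fewer in every KO library but not gone. On the first principal component (42.6% of the variance) WT 4 lay at 7.27, apart from the other WT libraries at -39.4 to -24.1. The KO libraries lay at 43.9, 24.7 and 18.3, so KO 1 and not KO 3 was the farthest on this axis. KO 3 was singled out from earlier results of these data, and leaving it out raised the number of genes called from 11 to 217. The fits without WT 4, KO 3 or both were chosen with results of these data known, so their adjusted p-values are not independent support. The labels give no batch. All 12 genes on the list of alveolar macrophage markers were present. Their summed level was 25917 to 60216 CPM in WT and 50153 to 81628 CPM in KO, most of it from Chil3, a secreted chitinase-like protein. Of the 12, 8 had a log2 fold change (KO minus WT) above 0 and 4 below it. At an adjusted p below 0.05 edgeR called 0 (0.0862% of all genes). DESeq2 called 1 higher and 2 lower, against 2.68% and 3.02% of all genes.

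The 10 genes differed widely in level. Divided by the length of their exons, the highest WT levels were those of Plet1 (927 CPM per kb ± 114, SD, n = 4) and Krt19 (887 ± 86.0). Car4 followed at 672 CPM per kb ± 315 and Krt79 at 389 ± 87.6, and the ranges of each pair of neighbours from Plet1 to Krt79 overlapped between WT libraries. Perp stood at 149 CPM per kb ± 28.2 and Epcam at 101 ± 41.5, again with overlapping ranges and both below every WT value of Krt79. Cldn1 (9.50 CPM per kb), Cdh1 (7.01) and Krt80 (3.56) formed a lower tier, in which Cldn1 and Cdh1 overlapped. Krt18 was at 0.0978 CPM per kb, 36.4-fold below Krt80. In KO the mean of Car4 was the highest, at 1337 CPM per kb ± 661 (SD, n = 3), and that of Plet1 came next at 915 ± 25.1, but in KO 2 Car4 was below Plet1. The KO mean of Cdh1 (11.1) was above that of Cldn1 (8.21), again with overlapping libraries.

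**Figure D1:**
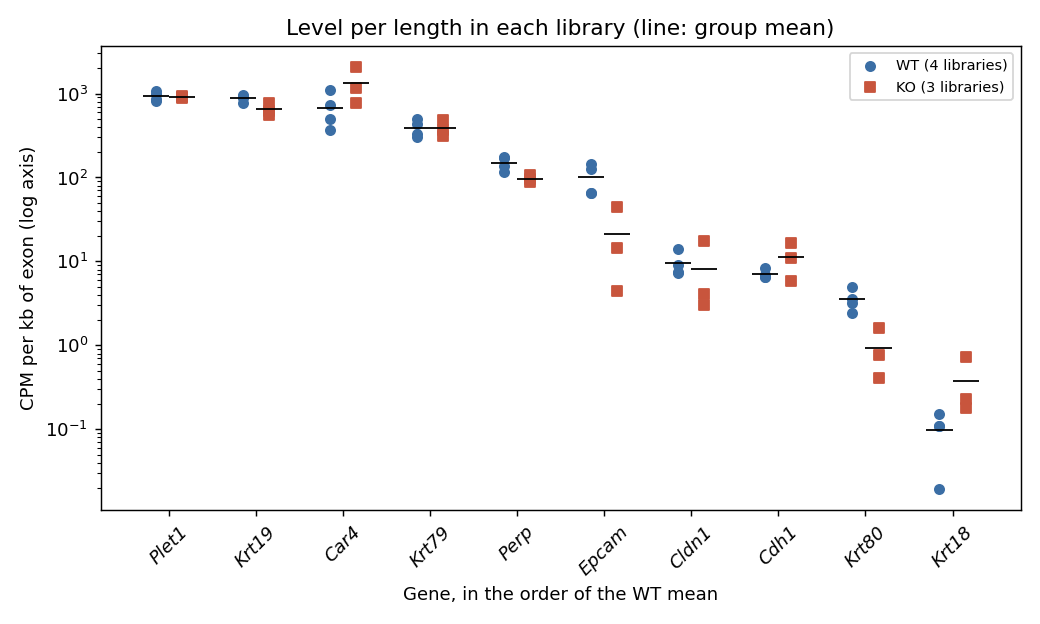
Level of each gene in CPM per kb of exon (log axis), genes ordered by the WT mean. Blue circles are the 4 WT libraries, red squares the 3 KO libraries and lines the group means; 6 genes lie above 100 CPM per kb in the WT mean, and Krt18 lies below all others.

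The keratins of these cells were chiefly 1 type I and 1 type II gene. Krt19 (chromosome 11, 100140810 to 100145926, mm10) and Krt79 (chromosome 15, 101929332 to 101940324) supplied nearly all keratin reads. Leaving out the 4 keratins described here, Krt80 and Krt18 in the chromosome 15 cluster included, 25 of 26 keratins on chromosome 11 and 21 of 24 on chromosome 15 stayed below 1 CPM in every library. Krt8, the usual type II partner of Krt18 in simple epithelia, reached at most 0.777 CPM, although it lies between Krt79 and Krt18, whose starts are 98.9 kb apart. The summed type I level was 1.87 to 2.89 times the type II level in WT and 1.29 to 2.15 times in KO, per kb, and the groups overlapped.

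Krt18 (chromosome 15, 102028216 to 102032026) was close to absent, so the description of these genes as transcribed by alveolar macrophages was not borne out for it. It had 1, 7, 5 and 5 reads in WT 1 to WT 4 and 10, 27 and 7 reads in KO 1 to KO 3. These counts are 0.0280 to 0.219 CPM in WT and 0.257 to 1.05 CPM in KO, and the gene did not pass the filter on low counts. The KO values in CPM were all above the WT values, with KO 2 the highest. WT 2 and KO 3 had 7 reads each, so their order rests on the scaling alone. Among the genes that passed the filter, 7.23% were higher in KO without overlap. KO 2 also had the highest levels of Krt7 (2.45 CPM), of Ager, a marker of type I alveolar cells (12.1 CPM), and of Scgb1a1, the secretoglobin of airway club cells (37.8 CPM). Not all epithelial markers followed: Sftpc, a marker of type II alveolar cells, was highest in KO 1. The summed type II markers were lower in KO 2 (150 CPM) than in the other KO libraries. The sums of fibroblast and mesothelium markers (13.4 CPM) and of red cell and platelet markers (496 CPM) were also highest in KO 2. The part of RNA from any of these cells in the Krt18 reads was not tested. Keratins are a family of similar genes with many processed copies, so how reads of similar sequence were assigned could matter most for so few reads. Without the filter edgeR gave Krt18 an adjusted p of 0.201, and DESeq2 gave 0.155. In the edgeR fits that it entered, its log2 fold change was 2.27 without KO 3 (adjusted p 0.149) and 2.33 without WT 4 and KO 3 (0.145).

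Markers of lung epithelium ranged from no reads to levels above those of some of the 10 genes. Nkx2-1, the transcription factor of lung epithelium, reached at most 0.544 CPM, and Foxj1, the factor of ciliated cells, at most 0.544 CPM as well. The 6 basal and squamous markers together gave at most 0.688 CPM, and Cldn4 had no read in any library. Of the 10 markers of general epithelium 7, Cldn4 among them, were below 1 CPM in every library, and the sum of all 10 was 4.31 to 7.04 CPM in WT and 5.74 to 8.04 in KO. The 9 type II alveolar markers summed to 114 to 200 CPM in WT and 150 to 160 in KO, and the 7 type I markers to 21.7 to 38.6 and 27.9 to 38.3 CPM, and both sums overlapped between genotypes. These sums are weighted by Napsa and Pdpn. Most single markers had a higher mean in KO: 7 of 9 type II markers (median log2 fold change 0.88) and 6 of 7 type I markers (1.24). An unadjusted edgeR p below 0.05 was found for 1 type II and 3 type I markers, against 18% of all genes. Of both lists 0 were called by edgeR or DESeq2, against 0.0862% and 5.71% of all genes. Sftpc, the surfactant protein of type II cells, was at 12.9 to 47.2 CPM in WT and at 69.5, 63.1 and 19.2 CPM in KO 1 to KO 3, above Krt80 in every KO library and above Epcam in KO 1 and KO 2. Without WT 4 and KO 3 edgeR called Sftpc (1.74, adjusted p 0.0239), Sftpa1 (1.70, 0.0389), Sftpb (1.90, 0.0432), Aqp5 (3.09, 0.0457) and Cldn18 (2.17, 0.0397) higher in KO, and Napsa (-0.94, 0.0193) and Pdpn (-0.93, 0.0489) lower. That fit called 4.57% of all genes.

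The airway list was the only epithelial one whose summed level did not overlap between genotypes, with 336 to 580 CPM in WT and 135 to 241 in KO. Most of it was Tppp3, a tubulin-binding protein found in ciliated cells among others, whose WT mean was 433 CPM ± 108 and whose KO mean was 165 ± 64.7. Its log2 fold change was -1.39, with adjusted p-values of 0.0898 (edgeR) and 0.00323 (DESeq2). Without WT 4 and KO 3 it was -1.80 (edgeR adjusted p 0.0164), in a fit that called 4.57% of all genes. The other 4 airway markers tested had higher means in KO. Scgb1a1 was at 1.08 to 13.0 CPM in WT, while KO 1 to KO 3 had 21.2, 37.8 and 4.19 CPM. Ager was at 0.700 to 3.25 CPM in WT and at 6.21, 12.1 and 1.18 CPM in KO. Scgb1a1, Ager and Sftpc were higher in KO 1 and KO 2, the libraries with the least Epcam, than in any WT library. Tppp3, Napsa (39.8 and 49.96 CPM) and Pdpn (7.66 and 9.91 CPM) were lower there than in any WT library, as Epcam was. The part of epithelial RNA in the differences of the 10 genes was not tested.

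**Figure D2:**
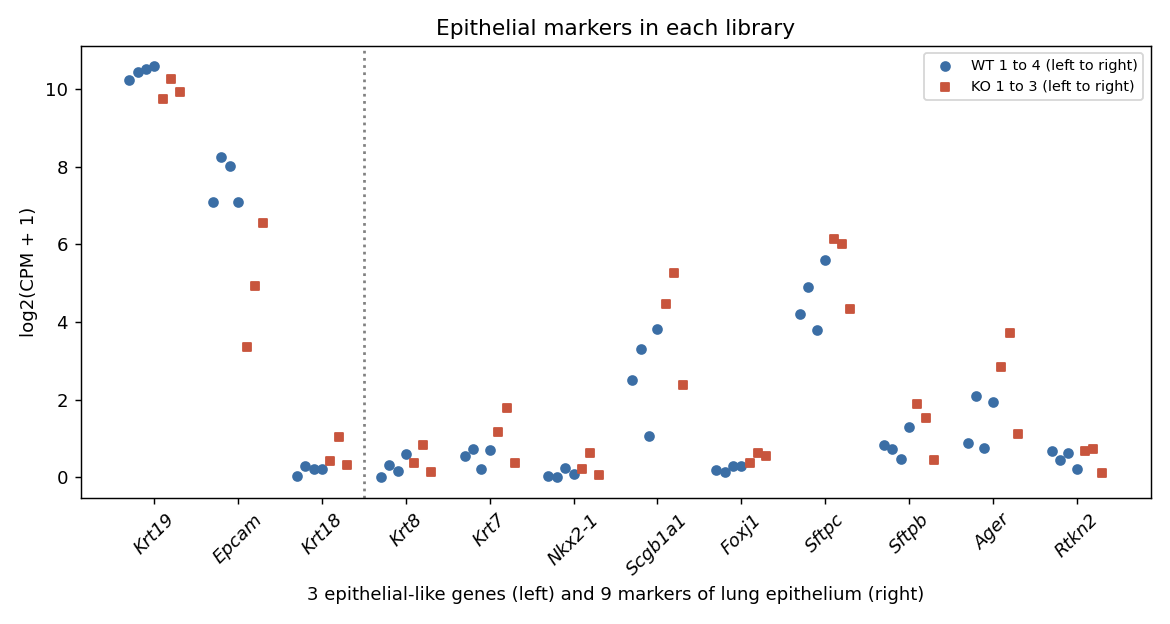
log2(CPM + 1) of 3 of the epithelial-like genes and 9 markers of lung epithelium in each library, WT 1 to 4 as blue circles and KO 1 to 3 as red squares from left to right. Krt19 and Epcam lie far above Krt8, Nkx2-1 and Foxj1. Sftpc, Scgb1a1 and Ager are higher in KO 1 and KO 2 than in KO 3, the reverse of Epcam. Tppp3, Napsa and Pdpn, which are not plotted, were lower in KO 1 and KO 2 than in any WT library, as Epcam was.

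The question put to these genes was whether loss of Cish changed their expression. Of the 9 that passed the filter edgeR called 0 at an adjusted p below 0.05, against 11 of 12759 genes (0.0862%; 0.0392% lower and 0.047% higher). An unadjusted edgeR p below 0.05 was found for 6 of the 9, 4 lower and 2 higher in KO, against 18% of all genes (8.85% lower and 9.15% higher). DESeq2 called 3 of 10, Krt80, Perp and Krt19, all lower, against 5.71% of all genes (3.02% lower and 2.68% higher). CPM did not overlap between genotypes for 3 of the 9, Krt80, Epcam and Perp, all lower in KO, and 0 were higher without overlap, against 8.72% and 7.23% of all genes tested (16% in all). Other fits of the 9 genes called 0 with voom (0.361% of all genes) and 0 with WT 4 and KO 3 given their own term (0.149%), but 3 with no filter on low counts (1.79%) and 3 with a block on the replicate number (3.37%). In bulk RNA, fewer cells that express a gene and less RNA per cell cannot be told apart. Their median log2 fold change was -0.21, and that of all genes tested 0.003. Every gene of the 9 had at least 56 reads in every library, so none passed the filter through 1 genotype alone.

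**Figure D3:**
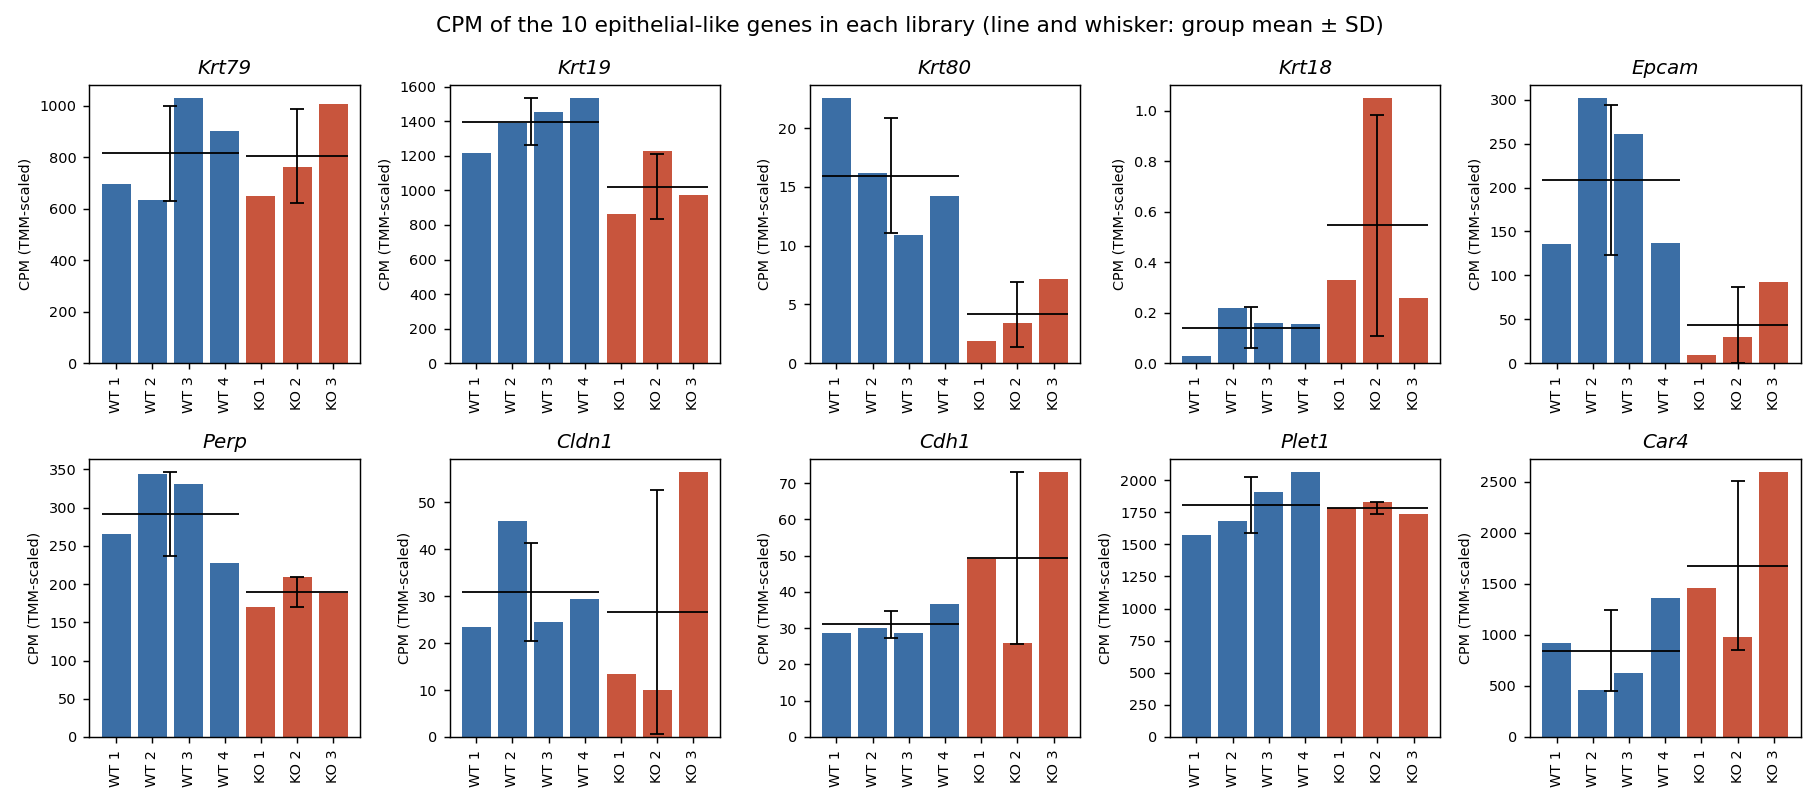
CPM of the 10 genes in each library (bars; blue WT, red KO), with the group mean as a line and ± SD as a whisker. Krt80, Epcam and Perp are lower in all 3 KO libraries than in any WT library, and Cldn1, Cdh1 and Car4 are highest in KO 3.

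Of the 9 genes tested, Epcam showed the largest difference. It had 135, 302, 261 and 136 CPM in WT 1 to WT 4 and 9.24, 29.5 and 92.6 CPM in KO 1 to KO 3. Every KO library was below every WT library, but the KO libraries themselves spread over 10.02-fold, with KO 3 closest to WT. The means were 209 CPM ± 85.6 (SD, n = 4) and 43.8 ± 43.5 (SD, n = 3), 4.76-fold lower in KO. The log2 fold change of -2.25 (SE 0.67) was the fifth lowest of all 12759 genes, with a 95% interval from -3.76 to -0.74, and missed the threshold (edgeR adjusted p 0.143, DESeq2 0.0571). Among the other 5 libraries, without WT 4 and KO 3, Epcam was 12.0-fold lower in KO (-3.59 on the log2 scale, edgeR adjusted p 0.0189), in a fit that called 4.57% of genes. KO 3 stood at 0.679 of WT 4, and as it was the highest KO library, leaving it out widens the difference by itself. Without KO 3 alone the log2 fold change was -3.43 (adjusted p 0.0329, with 1.67% of genes called), without WT 4 alone -2.41 (0.110), and without KO 1 alone -1.77 (0.418).

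Epcam lies on chromosome 17 at 87635979 to 87651127. The 250 bases before its start are shown with those of Plet1, whose KO values all lay within the WT range, and of Car4, whose mean was higher in KO, so that 3 different outcomes can be compared (RefSeq, GRCm38.p6, the build mm10, written in the direction of the gene). Capitals mark CAGGTG or its reverse complement CACCTG, the E-box that the repressors of epithelial genes ZEB1 and SNAIL bind.
Epcam, chr17:87635729-87635978, plus strand: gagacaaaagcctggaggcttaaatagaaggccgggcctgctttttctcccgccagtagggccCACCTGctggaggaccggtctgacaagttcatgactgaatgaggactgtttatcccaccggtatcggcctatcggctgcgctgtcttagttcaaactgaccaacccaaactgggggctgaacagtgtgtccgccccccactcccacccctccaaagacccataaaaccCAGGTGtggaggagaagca
Plet1, chr9:50494275-50494524, plus strand: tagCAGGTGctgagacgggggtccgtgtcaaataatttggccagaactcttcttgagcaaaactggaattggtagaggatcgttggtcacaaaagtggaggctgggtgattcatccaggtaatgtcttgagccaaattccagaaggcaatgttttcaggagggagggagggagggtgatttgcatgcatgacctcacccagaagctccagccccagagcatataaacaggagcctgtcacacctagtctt
Car4, chr11:84957504-84957753, plus strand: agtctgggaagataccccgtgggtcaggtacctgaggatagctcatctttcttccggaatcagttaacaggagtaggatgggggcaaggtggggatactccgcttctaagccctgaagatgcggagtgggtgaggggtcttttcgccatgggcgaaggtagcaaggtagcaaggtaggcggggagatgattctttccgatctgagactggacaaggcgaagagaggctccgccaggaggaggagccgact
Epcam held 2 such E-boxes, 187 to 182 and 19 to 14 bases before the start. Plet1 held 1, 247 to 242 bases before it, and Car4 none. Of the other genes with an entry, Krt79 and Krt18 held 1 each and Cldn1 none, and 17.2% of 32851 windows of this length held at least 1. The letters TTCNNNGAA of STAT5 (7.02% of windows), GAGGAA of PU.1 (23.3%) and AACCNGTT of Grainyhead-like factors (1.79%), searched on both strands, were in none of the 6 windows, so no matches overlapped. A match is a stretch of letters and does not show that a factor binds there.

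Krt80 (chromosome 15, 101348315 to 101370162), a type II keratin, had the next largest difference of the 9. Its CPM were 22.5, 16.2, 10.9 and 14.2 CPM in WT and 1.85, 3.46 and 7.21 CPM in KO. As for Epcam, KO 3 was the highest KO library and KO 1 the lowest, and no KO library reached the WT range. The WT mean was 16.0 CPM ± 4.91 (SD, n = 4) and the KO mean 4.17 ± 2.75 (SD, n = 3), 3.83-fold lower. The log2 fold change was -1.94 (SE 0.42, 95% interval -2.89 to -0.99), and the adjusted p was 0.0950 in edgeR but 0.00953 in DESeq2. Without WT 4 and KO 3 it was -2.65 (edgeR adjusted p 0.0174, with 4.57% of genes called), and KO 3 stood at 0.506 of WT 4. Without KO 3 alone it was -2.60 (0.0188, with 1.67% of genes called), and without KO 1 alone -1.58 (0.361). As KO 3 was the highest KO library, leaving it out widens the difference by itself.

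Perp (chromosome 10, 18845071 to 18857073) had 266, 344, 331 and 227 CPM in WT and 170, 209 and 189 CPM in KO. WT 4 was the lowest WT library and KO 2 the highest KO library, and the genotypes did not overlap. The KO libraries lay close together here, at 190 CPM ± 19.5 (SD, n = 3) against 292 ± 55.0 (SD, n = 4) in WT, a 1.54-fold difference. The log2 fold change was -0.62 (SE 0.15, 95% interval -0.96 to -0.28), and the adjusted p was 0.106 in edgeR but 0.00344 in DESeq2. With WT 4 left out edgeR called it (-0.72, adjusted p 0.0391, with 2.25% of genes called). It did so too with WT 4 and KO 3 left out (-0.72, adjusted p 0.0421, with 4.57% of genes called). As WT 4 was the lowest WT library, leaving it out widens the difference by itself. KO 3 stood at 0.831 of WT 4.

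Krt19 had 1214, 1393, 1453 and 1533 CPM in WT and 863, 1228 and 976 CPM in KO. KO 2 lay just above WT 1, so the genotypes overlapped by this 1 pair. Means were 1398 CPM ± 136 (SD, n = 4) and 1022 ± 187 (SD, n = 3), 1.37-fold lower in KO. The log2 fold change was -0.45 (SE 0.13, 95% interval -0.75 to -0.15). It was called by DESeq2 (adjusted p 0.0285) and not by edgeR (0.141), nor by edgeR without WT 4 and KO 3 (-0.37, 0.243).

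Krt79 and Plet1, both among the 4 most abundant of these genes per length, did not differ beyond the spread. Krt79 had 695, 633, 1030 and 902 CPM in WT and 648, 761 and 1005 CPM in KO, with libraries of the genotypes fully interleaved. Its log2 fold change of -0.02 (SE 0.20) had a 95% interval from -0.46 to 0.42. Plet1 (chromosome 9, 50494525 to 50505639) had 1571, 1680, 1907 and 2063 CPM in WT and 1780, 1831 and 1733 CPM in KO, all 3 KO libraries within the WT range. Its log2 fold change of -0.02 (SE 0.11) had a 95% interval from -0.26 to 0.22, the narrowest of the 9. Plet1 shares its chromosome with Cish but lies 56.8 Mb away. The other 9 genes are on other chromosomes.

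Cldn1 (chromosome 16, 26356645 to 26371839) depended on 1 library. It had 23.5, 46.0, 24.5 and 29.3 CPM in WT and 13.5, 9.95 and 56.5 CPM in KO. KO 1 and KO 2 were below every WT library and KO 3 above every one. Over all 7 libraries the log2 fold change was -0.21 (SE 0.54, edgeR adjusted p 0.872). Without KO 3 it was -1.40 (edgeR adjusted p 0.0612), and without WT 4 and KO 3 -1.42 (0.0521), neither past the threshold.

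Cdh1 (chromosome 8, 106603350 to 106670247) and Car4 (chromosome 11, 84957754 to 84966054) had higher means in KO. Cdh1 had 28.7, 30.1, 28.7 and 36.5 CPM in WT and 49.2, 25.9 and 73.1 CPM in KO. KO 1 and KO 3 exceeded every WT library while KO 2 was the lowest of all 7. The log2 fold change was 0.67 (SE 0.28, 95% interval 0.04 to 1.30, edgeR adjusted p 0.249, DESeq2 0.112). It was 0.28 without KO 3 (edgeR adjusted p 0.571) and 0.97 without KO 2 (0.0939).

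Car4 had 925, 461, 627 and 1364 CPM in WT and 1462, 980 and 2596 CPM in KO. WT 4 exceeded KO 2, and KO 3 stood far above the rest, at 1.90 times WT 4. The means were 845 CPM ± 396 (SD, n = 4) and 1679 ± 830 (SD, n = 3), and the difference did not pass the test (log2 fold change 0.99, SE 0.39, 95% interval 0.10 to 1.88, edgeR adjusted p 0.233, DESeq2 0.304). It was 0.53 without KO 3 (adjusted p 0.497) and 1.32 without WT 4 (0.0966). Among the 5 other libraries, without WT 4 and KO 3, KO was 1.82 times WT (edgeR adjusted p 0.129). The genotypes did not overlap there, which follows from leaving out WT 4, the only WT library above a KO library. The share of all genes without overlap in these 5 libraries was not counted. Car4 is also a marker of a capillary endothelial cell of the lung. The 8 endothelial markers summed to 1.18 to 4.16 CPM in WT and to 12.0, 9.79 and 5.37 CPM in KO 1 to KO 3. These sums did not overlap between genotypes, and KO 3, with the most Car4, had the lowest of the KO sums. All 6 of the markers that were tested had higher means in KO. DESeq2 called 5 of them (5.71% of all genes) and edgeR 0 (0.0862%). The part of such cells in the Car4 difference was not tested.

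**Figure D4:**
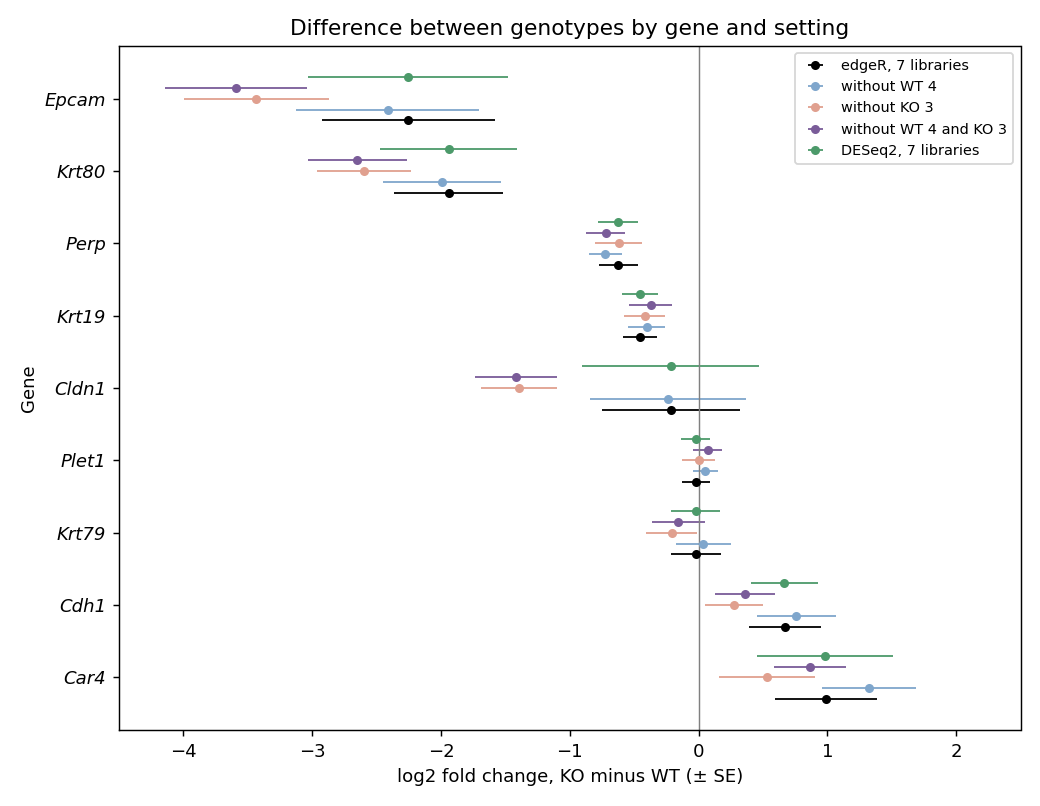
log2 fold change (KO minus WT) ± SE of the 9 genes tested, with edgeR on all 7 libraries (black), without WT 4, without KO 3, without both, and with DESeq2. Epcam, Krt80, Perp and Krt19 are below 0 in every setting shown, Car4 and Cdh1 above it, and Cldn1 moves from -0.21 to -1.40 without KO 3.

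Genes that work with these 10 were followed in 8 lists of 192 genes, of which 78 passed the filter. Over the lists edgeR called 0 genes, with an unadjusted p below 0.05 for 18 of 78 (9 lower, 9 higher; 18% of all genes), and DESeq2 called 12 of the 84 it tested, 7 lower and 5 higher (5.71% of all genes). Without WT 4 and KO 3 edgeR called 8 (4.57% of all genes): Spint1, Zeb1 and Phlda3 lower, and Car13, Trp53inp1, Pkp2, Cldn5 and Cldn18 higher. The median log2 fold change over the 78 genes was 0.03. In the named genes that follow, "lower" and "higher" by DESeq2 means called by that tool on all 7 libraries, where edgeR called none.

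Jup, the plakoglobin that ties cadherins to keratins at desmosomes, had a WT mean of 152 CPM ± 15.8 (SD, n = 4) and a KO mean of 112 ± 12.8 (SD, n = 3) without overlap, lower by DESeq2 (log2 fold change -0.45, adjusted p 0.0102; edgeR 0.109). It was the most abundant per length of its 16 genes, 5 of which were tested. Pkp2, a plakophilin, had means of 0.424 and 1.18 CPM (1.48, edgeR adjusted p 0.268). Of the 15 cadherins, catenins and nectins 11 were tested. Beta-catenin, Ctnnb1, was the most abundant, with 108 CPM per kb in WT and 123 in KO. Nectin4 was lower by DESeq2 (-0.63, adjusted p 0.0328; edgeR 0.121), and the endothelial cadherin Cdh5 higher from 0.120 to 0.735 CPM (DESeq2 adjusted p 0.00662, edgeR 0.0898).

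Of 42 tight junction genes 15 were tested, and the summed level was lower in every KO library (551 to 629 CPM) than in any WT library (683 to 745 CPM). Single genes were not mostly lower: 6 of the 15 had a lower and 9 a higher mean (median log2 fold change 0.08), and the sum is weighted by F11r and Patj. F11r, the junctional adhesion molecule JAM-A, was the most abundant of them. It had 409, 429, 382 and 408 CPM in WT and 278, 316 and 328 CPM in KO (-0.41 on the log2 scale, SE 0.09, DESeq2 adjusted p 0.00181, edgeR 0.0950). Patj, a scaffold of cell polarity, had means of 126 and 100.4 CPM (-0.33, DESeq2 adjusted p 0.0360, edgeR 0.133). Cldn5, an endothelial claudin, was higher by DESeq2 at means of 0.515 and 2.14 CPM (edgeR adjusted p 0.136). Jam2, also endothelial, was called higher by DESeq2 but failed the filter and was not tested by edgeR, at means of 0.0705 and 0.729 CPM.

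Of the 12 partners and proteases of EpCAM 11 were tested and none was called by either tool. Cd9, a tetraspanin, was by far the most abundant, at 7212 CPM per kb in WT and 6783 in KO. Spint1, an inhibitor of the membrane protease matriptase, had 111, 113, 105 and 112 CPM in WT and 43.7, 61.3 and 108 CPM in KO, a difference of -0.64 on the log2 scale (edgeR adjusted p 0.226). As with Epcam, KO 1 and KO 2 were low and KO 3 closer to WT, here within the WT range. Without KO 3 edgeR called Spint1 lower (-1.07, adjusted p 0.0149, with 1.67% of genes called). As KO 3 was the highest KO library, leaving it out widens the difference by itself. Adam10, a sheddase, had a log2 fold change of -0.24 (edgeR adjusted p 0.348).

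Among other keratins 4 of 50 were tested; Krt78 was the most abundant, with 4.39 CPM in WT and 7.13 in KO (edgeR adjusted p 0.306), and Krt7 had 0.479 and 1.33 CPM (0.283). Of 23 carbonic anhydrases and bicarbonate transporters 12 were tested. Car13, a cytosolic carbonic anhydrase, had 4.42, 2.63, 3.79 and 4.16 CPM in WT and 12.8, 8.59 and 5.63 CPM in KO (1.26 on the log2 scale, DESeq2 adjusted p 0.00114, edgeR 0.0950), higher by DESeq2, with KO 3 the lowest KO library where Car4 had its highest. Without KO 3 edgeR called Car13 higher (1.51, adjusted p 0.0321, with 1.67% of genes called), but leaving out the lowest KO library widens the difference by itself. Car7 had a log2 fold change of -0.42 (edgeR adjusted p 0.315), and Car5b, a mitochondrial carbonic anhydrase and the most abundant per length, had 5.97 CPM per kb in WT and 6.07 in KO.

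Of 21 epithelial transcription factors and their repressors 8 were tested, and 2 were lower by DESeq2. Zeb1, the repressor of Cdh1 and Epcam, had 4.53, 6.78, 6.59 and 3.41 CPM in WT and 1.55, 2.60 and 3.27 CPM in KO (-1.11 on the log2 scale, DESeq2 adjusted p 0.0167, edgeR 0.141). Without WT 4 and KO 3 it was -1.53 (edgeR adjusted p 0.0415, with 4.57% of genes called). WT 4 was its lowest WT and KO 3 its highest KO library, so leaving them out widens the difference by itself. Grhl1, a Grainyhead-like activator of epithelial genes, had means of 7.30 CPM ± 2.56 and 3.78 ± 1.03 (-0.95, DESeq2 adjusted p 0.0415, edgeR 0.178). Klf4 was the most abundant, at 44.9 CPM per kb in WT and 45.3 in KO. Among 13 genes around p53, of which Perp is a target, 12 were tested, 9 with a higher and 3 with a lower mean. Phlda3 was lower (-0.48, DESeq2 adjusted p 0.00114, edgeR 0.0946) and Trp53inp1 higher (0.86, DESeq2 adjusted p 0.0233, edgeR 0.141). Cdkn1a, the cell cycle inhibitor p21, had 228 CPM per kb in WT and 288 in KO (edgeR adjusted p 0.235).

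**Figure D5:**
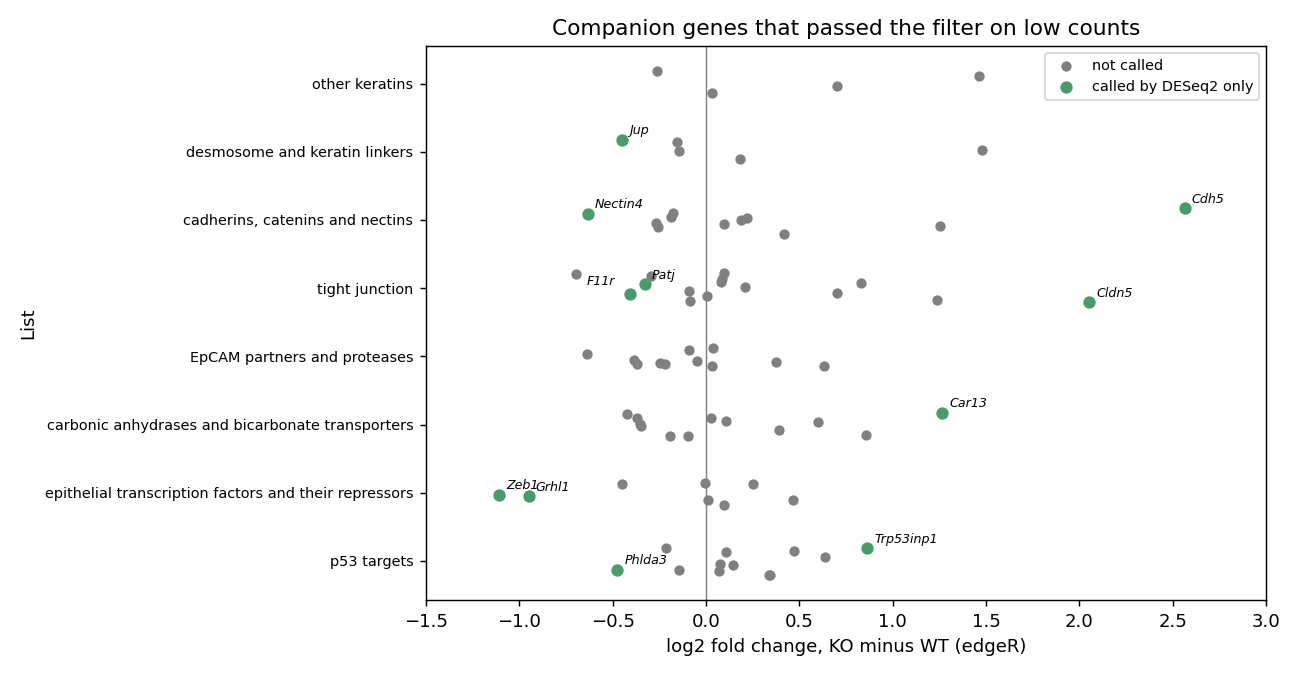
log2 fold change (KO minus WT, edgeR) of the 78 companion genes that passed the filter, by list; each point is a gene, with vertical scatter only for legibility, and green points were called by DESeq2 and not by edgeR. Cdh5 and Cldn5, endothelial genes at means of at most 2.14 CPM, lie farthest to the right.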

How the data were processed

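The authors deposited raw read counts per gene symbol for 7 RNA-seq libraries, and the name they gave the table includes rsubread; the build mm10 and DESeq2 are named in the submitters' processing notes. No source used here gives the annotation, the strand setting or the handling of multimapped reads. Libraries were made with a Nextera XT kit from RNA of sorted cells, per the labels' protocols. Total counts per library were 26780291 to 34483612. The 1036 rows without a symbol (0.376% to 0.424% of counts) were left out.

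KO was compared with WT, grouped as labelled, in R 4.3.3 with edgeR 4.0.16: filterByExpr (12759 genes kept), TMM factors, quasi-likelihood F test on genotype alone, 2-sided, Benjamini-Hochberg adjustment over all genes tested, threshold 0.05. DESeq2 1.42.0, limma 3.58.1 (voom) and other scalings, filters and library sets were alternatives. Log2 fold changes are KO minus WT. Intervals use the edgeR SE and its degrees of freedom. The scripts were tested on simulated data. Levels per kb use the union of GENCODE M21 exons, and gene positions and promoters are RefSeq GRCm38.p6; 6 of the 10 genes had a promoter entry. The genes, lists and alternatives were chosen with earlier results of these data known. Named companion genes are those called by edgeR or, failing that, the 2 of smallest p per list, and the most abundant per kb; genes called by DESeq2, Krt8, Sftpc, Ager, Scgb1a1 and other single markers were added after their values were seen.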

Additional observations from a re-analysis of the deposited data

How the results depend on the processing

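Over 17 alternatives the directions of Krt80, Epcam, Perp, Krt19, Cdh1 and Car4 did not change. Adjusted p passed in 4 alternatives for Krt80 and Epcam, 5 for Perp, 1 for Krt19 and Car4, and 0 for the rest. The number called of the 10 genes, 0 in the main fit, was 3 with DESeq2, 3 with no filter, 3 with the replicate block and 3 without WT 4 and KO 3, and 0 to 2 with each library left out (1 without WT 4, 2 without KO 3). Companion genes called went from 0 to 12 with DESeq2, 5 with no filter, 6 with the replicate block and 8 without WT 4 and KO 3, and 0 to 3 with each library left out. Over all genes the count of 11 became 753 with DESeq2, 397 with no filter, 21 with at least 5 CPM in at least 3 libraries, 46 with voom, 430 with the replicate block, 590 without WT 4 and KO 3 and 19 with a term for them, and 7 to 284 with each library left out (7 without WT 1, 217 without KO 3, 284 without WT 4). The cause was not tested.

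Values near 0 changed sign. Krt79 was at 0.043 with the replicate block and -0.21 to 0.12 with each library left out, Plet1 at 0.055 with the block, 0.072 without WT 4 and KO 3 and -0.080 to 0.053 with each library left out, and Cldn1 at -1.40 to 0.17 with each library left out (0.05 without WT 2, 0.11 without KO 1, 0.17 without KO 2).

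The labels number the replicates of both genotypes. Deviations from the group mean had correlations of -0.01, 0.14 and -0.02 over genes between same-numbered libraries. Between libraries of different number they were -0.21 to 0.16. With so few libraries these values cannot show whether same-numbered libraries were paired. With the block, in which WT 4 takes no part, Car4 passed (1.26, edgeR adjusted p 0.0451), as did Epcam (-2.90, 0.0225) and Perp (-0.72, 0.0147). Depth limits Krt18, at 1 to 27 reads per library.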

Other observations

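Napsa and Pdpn, chosen after their values were seen, were like Epcam lowest in KO 1 and KO 2. Their KO 3 values lay within the WT range, while that of Epcam was below it. The other tested markers of their lists, all but Abca3, had higher means in KO. Neither Napsa nor Pdpn was called by edgeR or DESeq2 on all 7 libraries. Napsa, an aspartic protease of type II cells, had 97.7, 83.1, 77.4 and 118 CPM in WT and 39.8, 49.96 and 103 CPM in KO. Its log2 fold change was -0.55 (edgeR adjusted p 0.366), and -1.07 without KO 3 (0.0375, with 1.67% of genes called). Pdpn, the podoplanin of type I cells, had 14.8, 14.9, 20.6 and 17.7 CPM in WT and 7.66, 9.91 and 18.7 CPM in KO (-0.49 on the log2 scale, edgeR adjusted p 0.384), and -0.95 without KO 3 (0.0509). As KO 3 was the highest KO library of Napsa and Pdpn, leaving it out widens both differences by itself. Sftpc, Scgb1a1 and Ager were highest in KO 1 or KO 2.

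Marco, a scavenger receptor of alveolar macrophages, was like Car4 highest in KO 3 and lowest in WT 2, with WT 4 the highest WT library: 461, 152, 294 and 664 CPM in WT and 642, 446 and 673 CPM in KO, a difference of 0.58 on the log2 scale (edgeR adjusted p 0.482) and of 0.96 without WT 4 (0.170). Chil3 shared the 3 features, from 16623 CPM in WT 2 and 50491 in WT 4 to 72178 in KO 3 (1.01 on the log2 scale, edgeR adjusted p 0.181). Without WT 4 it was 1.39 (edgeR adjusted p 0.0445), in a fit that called 2.25% of genes. As WT 4 was the highest WT library for Marco and Chil3, leaving it out widens both differences by itself. How many genes share the 3 features was not counted. Marco and Chil3 are 2 of the 12 macrophage markers, of which 8 had a log2 fold change above 0 and 4 below it. Globin reads differed between libraries as well: Hba-a1 was at 5.66 to 142 CPM in WT and 115 to 341 CPM in KO.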
